A study of Mus musculus with 6 samples.

Results

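The genes of fatty acid uptake, activation, carnitine-dependent entry into mitochondria and beta-oxidation, with the PPAR and PGC-1 factors that regulate them, were examined in β1 integrin knockout hearts of mouse embryos at E12.5, a stage of midgestation. The module listed 35 genes. A gene was measured by the transcript cluster whose single annotated symbol was that gene, or by the brightest one over the 6 arrays where it had several, which gave values for 32 genes of 19933 named on the array. Acsl1, Acsl3 and Cpt1b were not analysed here, since no cluster carried any of these symbols alone. Hearts labelled KO for β1 integrin (heart_KO, 3 samples) were compared with hearts labelled wild type (heart_WT, 3 samples), all on Affymetrix Mouse Gene 1.0 ST arrays, 1 array a sample. The stated purpose was to search for the mechanism behind the abnormalities of the mutants at an age before their hearts showed obvious dysfunction. The labels give no strain, no Cre driver and no cell type of deletion, nor how many hearts went into a sample. A heart below stands for 1 sample, and all values are deposited log2 signals.

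Long-chain fatty acids reach the heart as lipoprotein triglyceride, which lipoprotein lipase cleaves at the capillary wall, and as albumin-bound acids. Inside the cell they are bound by fatty acid binding proteins, joined to coenzyme A by acyl-CoA synthetases, and passed through the mitochondrial membranes as carnitine esters by CPT1, a translocase and CPT2. In the matrix each turn of the beta-oxidation spiral removes an acetyl unit by dehydrogenation, hydration, a further dehydrogenation and thiolysis, and the first dehydrogenation passes its electrons through ETF to the respiratory chain. The embryonic heart draws mainly on glucose and lactate, and fatty acid oxidation becomes its leading fuel pathway after birth, under control of PPARα, the oestrogen-related receptors and the coactivator PGC-1α.

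The labels were checked with the targeted gene and with marker genes. Itgb1 signal was 11.53, 11.42 and 11.65 in KO replicates 1 to 3, against 11.76, 11.80 and 11.78 in WT replicates 1 to 3. Every KO heart lay below every WT heart, but the difference of -0.25 ± 0.089 (log2, SE) left 84% of the WT signal (exact permutation test, two-sided, p = 0.1, the smallest that 3 against 3 can give). Where the probes lie relative to the deleted part was not tested, and the cell type of deletion is not given. The signal thus checks the labels only in part. Itgb1 had an adjusted p of 0.797 with limma, and 7.18% of all named genes also had every KO heart below every WT heart. Median array signal was between 6.65 and 6.71, and the 8 cardiomyocyte markers, among them Myh7, Tnnt2 and Actn2, had a mean signal of 12.22 to 12.28 in KO hearts and 12.28 to 12.32 in WT hearts. KO replicate 1 stood apart by its 6 measured erythroid markers, whose mean was 11.42 in it, 9.65 and 9.89 in the other KO hearts and 9.49 to 10.21 in WT hearts. Liver and foregut markers averaged 6.04 to 6.42 in KO hearts and 5.63 to 5.75 in WT hearts, with 6 of 7 measured higher by mean in KO hearts. Of the 7, 4 had every KO heart above every WT heart, and 4 were higher at an unadjusted p under 0.05 (limma). Among all named genes 4.95% were separated upward, 2.07% were higher at that p and 44.2% had a higher mean. The part of such tissue in the module's values was not tested. Log2 signals of this kind have no zero, so no marker can be called absent. In whole hearts, fewer cells of a type and less RNA per cell cannot be told apart.

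Most enzymes of mitochondrial beta-oxidation had a lower mean signal in KO hearts, while the 4 regulators had a higher one, and no single gene passed the test. Of 32 measured genes, 20 had a lower and 12 a higher mean in KO hearts, and 0 passed limma's test with Benjamini-Hochberg adjustment over 28767 clusters (adjusted p between 0.797 and 0.992). Over all clusters 0% passed, while 5.93% of clusters had an unadjusted p under 0.05. The 20 lower genes stand beside 55.8% of all named genes with a lower mean, and 58.8% of the brightest 25% of them. At an unadjusted p under 0.05, 4 genes were lower, Cpt2, Etfb, Ech1 and Decr1, and 0 were higher. Among all named genes, 2.91% were lower at that p and 2.07% higher (4.98% in all), and 2.01% of the brightest 25% were lower. The count depended on single hearts, and was 1 without KO replicate 1 (Ech1) and 1 without KO replicate 3 (Cpt2). It was 4 without KO replicate 2 (Mlycd, Acads, Etfb and Decr1) and 3 without WT replicate 3 (Cpt2, Slc25a20 and Etfb). It was 0 without WT replicate 1, 0 without WT replicate 2 and 0 with the replicate number as a block. The count of higher genes also moved, to 1 without KO replicate 3 (Ppard), 1 without WT replicate 1 (Lpl) and 1 without WT replicate 3 (Cpt1c). The median difference over the 32 genes was -0.10, beside -0.019 over all named genes, and single differences ran from -0.31 (Mlycd) to 0.27 (Lpl). Without KO replicate 1 the median was -0.061, without WT replicate 1 -0.066, without WT replicate 2 -0.065 and without WT replicate 3 -0.15.

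**Figure D1:**
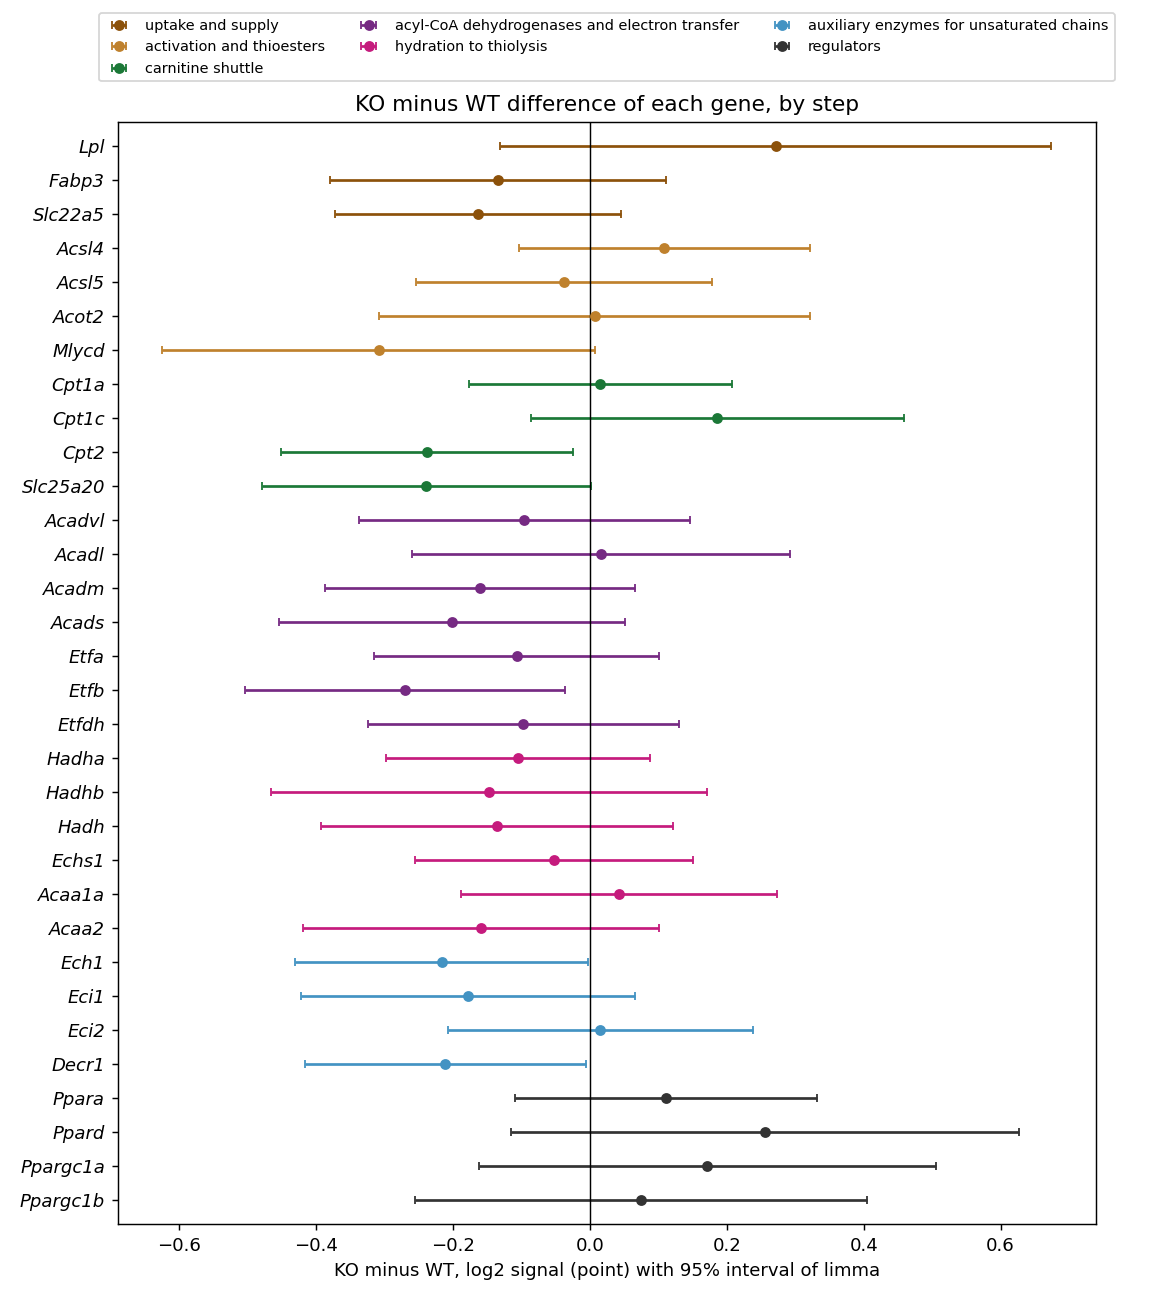
KO minus WT difference in log2 signal of each of the 32 measured genes (points, horizontal axis) with limma's 95% interval (bars), in the order of the pathway from top to bottom and coloured by step. The intervals of Cpt2, Etfb, Ech1 and Decr1 lie wholly below 0, all others include it, and the 4 regulators at the bottom lie to the right of 0.

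Every KO heart lay below every WT heart for 7 genes, Slc22a5, Mlycd, Cpt2, Slc25a20, Etfb, Ech1 and Decr1, and above for 0. The 7 make up 21.9% of the measured genes, where 7.18% of all named genes showed this separation downward and 4.95% upward. The module is bright on this array, with 25 of 32 genes among the brightest 25% of named genes by mean signal, and 8.91% of those bright genes were separated downward. The respiratory chain, a list of 20 nuclear-encoded subunits of which 19 were measured, had 5 such genes (26.3%), and the citrate cycle list had 2 of 17 (11.8%), close to the share of bright genes. Of 13 measured glycolysis genes, 0 were separated downward and 5 upward. No test between the groups was run.

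Promoter windows were available in RefSeq (GRCm38.p6) for 28 of the 32 measured genes, and those of Cpt2, Etfb and Ech1 are shown as the promoters of genes lower at an unadjusted p under 0.05 (Decr1 was not in the table). Each runs 5′ to 3′ on the gene's strand from 250 bases before to 50 bases after the transcription start, with each CpG in capitals. They lie at chr4:107923540-107923839, reverse strand (Cpt2), chr7:43443822-43444121, forward strand (Etfb) and chr7:28825088-28825387, forward strand (Ech1).
Cpt2: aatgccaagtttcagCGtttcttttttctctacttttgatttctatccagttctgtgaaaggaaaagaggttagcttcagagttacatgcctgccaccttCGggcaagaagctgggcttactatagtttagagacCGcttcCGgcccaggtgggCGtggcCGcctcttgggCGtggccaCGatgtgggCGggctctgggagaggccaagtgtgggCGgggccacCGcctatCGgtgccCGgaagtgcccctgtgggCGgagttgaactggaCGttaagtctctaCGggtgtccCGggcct
Etfb: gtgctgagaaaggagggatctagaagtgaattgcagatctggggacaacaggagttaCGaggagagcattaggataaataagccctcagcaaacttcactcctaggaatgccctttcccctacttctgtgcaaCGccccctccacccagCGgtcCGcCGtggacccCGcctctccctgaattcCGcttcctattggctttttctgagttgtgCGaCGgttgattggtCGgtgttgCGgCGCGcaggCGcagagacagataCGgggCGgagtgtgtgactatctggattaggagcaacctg
Ech1: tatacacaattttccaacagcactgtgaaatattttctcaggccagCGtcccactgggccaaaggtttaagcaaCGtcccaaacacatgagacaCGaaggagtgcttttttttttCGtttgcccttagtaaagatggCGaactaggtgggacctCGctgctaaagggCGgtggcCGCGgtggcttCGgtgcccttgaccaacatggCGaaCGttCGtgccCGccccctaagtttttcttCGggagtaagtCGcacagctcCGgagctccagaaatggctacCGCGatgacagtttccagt
These 3 windows hold 17, 16 and 19 CpGs. The 28 genes had a median of 17 CpGs (5 to 34) and a median GC content of 61%, beside 15 CpGs and 57.7% over 15609 measured genes of the table. Letter patterns of the pathway's nuclear receptors were searched on both strands, the DR1 pattern of PPAR-RXR dimers, AGGTCANAGGTCA with up to 1 mismatch, and the extended half-site of oestrogen-related receptors, TCAAGGTCA. Neither was found in any of 31 windows of 30 listed genes, where 0.554% and 0.423% of all 32851 windows held them. With shares this low, 31 windows of any genes would rarely hold a match, so the absence does not set the module apart. The shared half-site AGGTCA stood in 5 of the 31 windows (16.1%), those of Acadm, Acadvl, Cpt1a, Cpt1c and Echs1, against 16.3% of all windows. These letters overlap, as both longer patterns contain the half-site, and a match or its absence within 300 bases says nothing of binding.

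The supply genes differed in direction, 1 higher and 2 lower by mean. Lpl, lipoprotein lipase, had the largest difference upward of the module over all 6 hearts, and its signal was 10.42, 10.31 and 10.18 in KO replicates 1 to 3, against 10.44, 9.82 and 9.84 in WT replicates 1 to 3. WT replicate 1 was as high as the KO hearts, so the groups overlapped, and the difference of 0.27 ± 0.17 (log2, SE; limma, adjusted p = 0.801) was 0.47 without that heart. Fabp3, the fatty acid binding protein of heart muscle, read 11.30, 11.498 and 11.56 in KO replicates 1 to 3, against 11.71, 11.59 and 11.47 in WT replicates 1 to 3, a difference of -0.13 ± 0.11. Another cluster of Fabp3 gave -0.14. Without KO replicate 1, the lowest heart, Fabp3 stood at -0.059. Slc22a5, the plasma membrane carnitine transporter OCTN2, was 6.80, 6.98 and 7.001 in KO replicates 1 to 3, against 7.12, 7.11 and 7.04 in WT replicates 1 to 3. All KO hearts lay below all WT hearts, though the lowest WT and the highest KO heart were close, and the difference was -0.16 ± 0.090 (adjusted p = 0.797).

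Genes of acyl-CoA formation and hydrolysis had 2 higher and 2 lower means, and the lower count ran from 1 to 3 of 4 when 1 heart was left out. Acsl4, a synthetase that prefers arachidonate, differed by 0.11 ± 0.091 (log2, SE), Acsl5, a synthetase of the endoplasmic reticulum and mitochondria, by -0.038 ± 0.093 and Acot2, a mitochondrial acyl-CoA thioesterase, by 0.0073 ± 0.14. Acot2 has a close paralogue, Acot1, so that their signals may be shared. Acsl5 stood at 0.011 without WT replicate 1, and Acot2 at -0.056 without KO replicate 2 and -0.13 without WT replicate 3, so that both directions turned. Mlycd, malonyl-CoA decarboxylase, which removes the inhibitor of CPT1, had the largest difference downward of the module over all 6 hearts. Its signal was 7.0, 7.499 and 7.37 in KO replicates 1 to 3, against 7.69, 7.54 and 7.56 in WT replicates 1 to 3. KO replicate 1 lay far below the other KO hearts, which themselves were below all WT hearts. The difference of -0.31 ± 0.14 (limma, adjusted p = 0.797) left 80.7% of the WT signal, and was -0.16 without KO replicate 1.

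In the carnitine shuttle, both inner-membrane genes had a lower mean in KO hearts and both measured CPT1 isoforms a higher one. Cpt2, carnitine palmitoyltransferase 2, which re-forms acyl-CoA in the matrix, was 8.61, 8.59 and 8.71 in KO replicates 1 to 3, against 8.94, 8.94 and 8.75 in WT replicates 1 to 3. Its mean was 8.64 ± 0.067 in KO hearts and 8.87 ± 0.11 in WT hearts (SD, n = 3 each), a difference of -0.24 ± 0.092 (log2, SE; 95% interval -0.45 to -0.024; limma, adjusted p = 0.797). The lowest WT heart, replicate 3, lay just above the highest KO heart. Slc25a20, the carnitine-acylcarnitine translocase that feeds CPT2, was 9.18, 9.37 and 9.35 in KO replicates 1 to 3, against 9.60, 9.64 and 9.39 in WT replicates 1 to 3. Here too the groups did not overlap, with WT replicate 3 nearest to the KO hearts, and the difference was -0.24 ± 0.10 (adjusted p = 0.797). Cpt1a, the liver isoform of the outer-membrane enzyme, which the fetal heart also expresses, was 9.17, 9.33 and 9.27 in KO replicates 1 to 3, against 9.22, 9.26 and 9.25 in WT replicates 1 to 3. Its hearts were interleaved, and the 95% interval of the difference, -0.18 to 0.21, included 0. Cpt1c, the isoform known from brain, was 7.30, 7.09 and 7.35 in KO replicates 1 to 3, against 7.002, 6.93 and 7.25 in WT replicates 1 to 3. Its difference of 0.19 ± 0.12 (95% interval -0.086 to 0.46) ran upward, with overlap. Whether Cpt2 and Cpt1a differ from each other in their response was not tested.

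The acyl-CoA dehydrogenases act on chains of decreasing length and hand electrons to ETF, made of Etfa and Etfb, and on to ETF dehydrogenase, Etfdh. Of these 7 genes, 6 had a lower mean in KO hearts and 1, Acadl, a higher one, with a median difference of -0.11 (log2), which was -0.068 without WT replicate 2 and -0.17 without WT replicate 3. Etfb was 10.52, 10.81 and 10.68 in KO replicates 1 to 3, against 11.01, 10.93 and 10.88 in WT replicates 1 to 3. All KO hearts lay below all WT hearts, KO replicate 1 farthest. Its mean was 10.67 ± 0.15 in KO hearts and 10.94 ± 0.063 in WT hearts (SD, n = 3 each), and the difference of -0.27 ± 0.10 (SE; 95% interval -0.50 to -0.037; limma, adjusted p = 0.797) left 82.9% of the WT signal. The partner subunit Etfa was 10.46, 10.46 and 10.52 in KO replicates 1 to 3, against 10.55, 10.71 and 10.49 in WT replicates 1 to 3. WT replicate 3 lay below KO replicate 3, and the difference was -0.11 ± 0.089, while Etfdh differed by -0.097 ± 0.098 with overlap. Among the dehydrogenases, short-chain Acads was 9.82, 10.15 and 9.87 in KO replicates 1 to 3, against 10.20, 10.15 and 10.10 in WT replicates 1 to 3. KO replicate 2 matched the WT hearts while the other KO hearts were lower, for a difference of -0.20 ± 0.11. Medium-chain Acadm was 10.86, 11.09 and 11.01 in KO replicates 1 to 3, against 11.21, 11.18 and 11.05 in WT replicates 1 to 3, a difference of -0.16 ± 0.097. The very-long-chain dehydrogenase gene Acadvl differed by -0.096 ± 0.10 and long-chain Acadl by 0.016 ± 0.12. Acadl turned its sign without KO replicate 2, KO replicate 3 or WT replicate 3, the last to -0.092.

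Of the 6 genes of the later reactions, 5 had a lower mean in KO hearts, and none separated the groups. Hadha and Hadhb encode the subunits of the mitochondrial trifunctional protein, which hydrates, oxidises and cleaves long chains. Hadha was 11.22, 11.28 and 11.30 in KO replicates 1 to 3, against 11.43, 11.40 and 11.29 in WT replicates 1 to 3, a difference of -0.10 ± 0.083 (log2, SE). Hadhb was 10.71, 10.95 and 11.13 in KO replicates 1 to 3, against 11.13, 11.22 and 10.88 in WT replicates 1 to 3, a difference of -0.15 ± 0.14, with KO replicate 3 among the WT hearts, and another Hadhb cluster gave -0.14. For shorter chains, the hydroxyacyl-CoA dehydrogenase gene Hadh differed by -0.14 ± 0.11, the enoyl-CoA hydratase gene Echs1 by -0.052 ± 0.087 and the thiolase gene Acaa2 by -0.16 ± 0.11. Acaa1a, a thiolase of peroxisomes rather than mitochondria, had a higher mean, by 0.043 ± 0.099, and it has the close paralogue Acaa1b. Without KO replicate 1 the median of the 6 was -0.062 and without WT replicate 1 -0.070, in place of -0.12.

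The auxiliary enzymes that prepare unsaturated chains for the spiral had a median difference of -0.19 (log2), with 3 of 4 lower by mean. Decr1, the mitochondrial 2,4-dienoyl-CoA reductase, was 9.05, 9.25 and 9.14 in KO replicates 1 to 3, against 9.35, 9.41 and 9.31 in WT replicates 1 to 3. The groups did not overlap, and the difference was -0.21 ± 0.088 (SE; 95% interval -0.42 to -0.0053; limma, adjusted p = 0.797). Ech1, a dienoyl-CoA isomerase, was 9.96, 9.81 and 9.73 in KO replicates 1 to 3, against 10.04, 10.10 and 10.002 in WT replicates 1 to 3. Its KO hearts too lay below all WT hearts, with replicate 1 the highest of them, and the difference of -0.22 ± 0.092 (adjusted p = 0.797) was -0.28 without that heart. The enoyl-CoA isomerase Eci1 was 10.01, 9.83 and 9.80 in KO replicates 1 to 3, against 10.11, 10.15 and 9.90 in WT replicates 1 to 3. WT replicate 3 lay below KO replicate 1, and the difference of -0.18 ± 0.10 was -0.24 without KO replicate 1. Eci2, a further enoyl-CoA isomerase found in mitochondria and peroxisomes, differed by 0.015 ± 0.096 and turned its sign without KO replicate 1, KO replicate 3 or WT replicate 3. In this step KO replicate 1 was thus not the lowest KO heart for Ech1, Eci1 or Eci2.

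**Figure D2:**
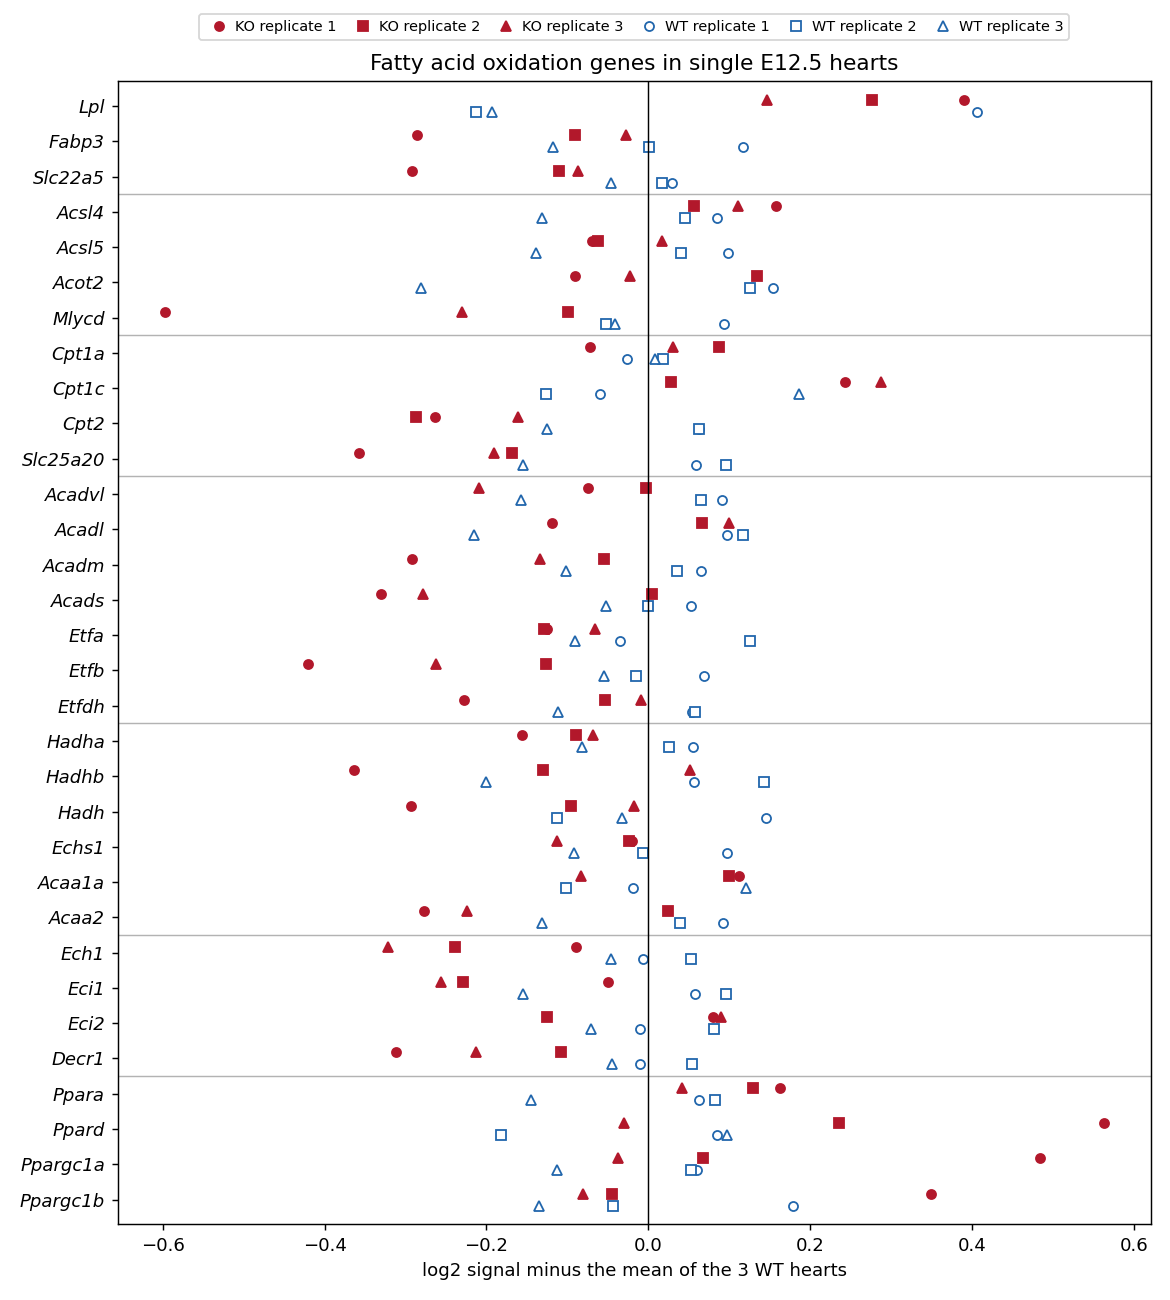
Log2 signal of the 32 measured genes in each heart, minus the mean of the 3 WT hearts of that gene (horizontal axis), with filled symbols for KO and open symbols for WT hearts and lines between the steps. Most KO symbols of the enzymes lie left of 0, WT replicate 3 (open triangles) lies left of the other WT hearts for most genes, and KO replicate 1 (filled circles) is far left for Mlycd and Etfb and far right for Ppard and Ppargc1a.

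The transcriptional regulators went the other way by mean, 4 of 4 higher in KO hearts, with a median difference of 0.14 (log2), where 44.2% of all named genes had a higher mean. None separated the groups. Ppara, the main fatty acid sensor of heart and liver, was 6.58, 6.55 and 6.46 in KO replicates 1 to 3, against 6.48, 6.502 and 6.28 in WT replicates 1 to 3, a difference of 0.11 ± 0.095 (SE). Ppard, the receptor PPARδ, was 8.14, 7.82 and 7.55 in KO replicates 1 to 3, against 7.67, 7.40 and 7.68 in WT replicates 1 to 3. KO replicate 1 stood above all other hearts, and the difference of 0.26 ± 0.16 was 0.10 without it. Ppargc1a, PGC-1α, a coactivator of mitochondrial biogenesis, was 10.42, 10.01 and 9.90 in KO replicates 1 to 3, against 9.999, 9.99 and 9.82 in WT replicates 1 to 3. Again KO replicate 1 was highest, and the difference of 0.17 ± 0.14 was 0.015 without it. Another Ppargc1a cluster gave 0.25, with 9.645, 9.39 and 9.32 in KO replicates 1 to 3, against 9.25, 9.33 and 9.02 in WT replicates 1 to 3. In that cluster KO replicate 2 also lay above all WT hearts, so its difference rested less on KO replicate 1. Ppargc1b, the related PGC-1β, differed by 0.075 ± 0.14, and by -0.063 without KO replicate 1. Ppara stood at 0.085 without KO replicate 1 and at 0.039 without WT replicate 3, where Ppargc1b was at 0.0070. Of the 4 regulators Ppargc1b alone turned its sign when 1 heart was left out. The median of the 4 was 0.050 without KO replicate 1, 0.21 without KO replicate 3 and 0.077 without WT replicate 3. KO replicate 1 was also the heart with the highest erythroid markers, whose part in these values was not tested.

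**Figure D3:**
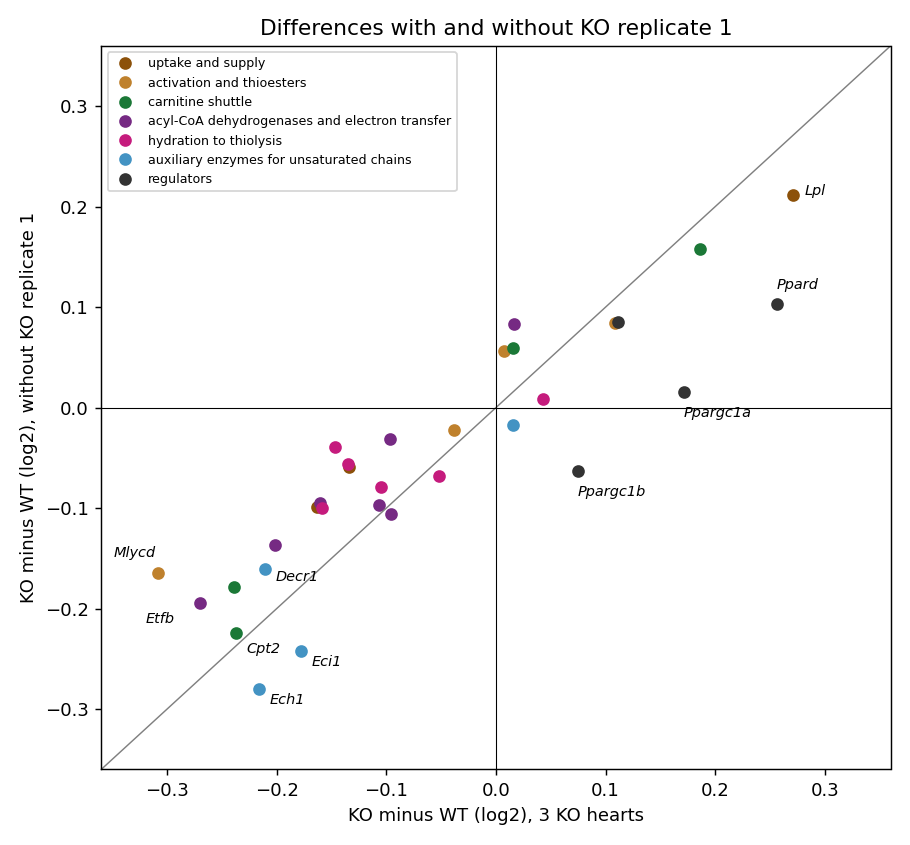
Each point is 1 of the 32 measured genes, with its KO minus WT difference in log2 signal over 3 KO hearts (horizontal axis) and without KO replicate 1 (vertical axis), coloured by step, beside the line of equal values. Mlycd, Etfb and the regulators Ppard, Ppargc1a and Ppargc1b lie closer to 0 or across it without that heart, while Ech1 and Eci1 lie farther from 0.

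KO replicate 1 was the lowest KO heart for 17 of 32 genes and the highest for 10, while WT replicate 3 was the lowest WT heart for 25. Of the 20 genes with a lower mean in KO hearts, 14 had their lowest KO value in replicate 1 and 18 their lowest WT value in replicate 3. Choosing genes by a lower KO mean favours low KO values, and these counts were not made over all named genes. The differences of 16 of these 20 were closer to 0 without KO replicate 1. Leaving out WT replicate 3 raised the number of genes with all KO hearts below all WT hearts to 18 of 32 (56.2%), against 13.8% of all named genes, while leaving out KO replicate 1 gave 8 of 32 (25%), against 11.6%. Without any 1 of the other 4 hearts the count was 7 to 10 (21.9% to 31.2%), against 11.6% to 15.4% of all named genes. Groups with fewer hearts separate more readily, as the shares over all named genes show. WT replicate 3 was singled out by these same values as the lowest WT heart, so the rise without it is no independent result. The shares over all named genes were not matched for the brightness of the module. WT replicate 3 was also the WT heart with the lowest mean of erythroid markers (9.49, against 10.21 and 10.11) and the highest of the 6 cushion mesenchyme markers (8.93, against 8.32 and 7.94). The cushion markers reached 8.89 in KO replicate 3. The part of these cell types in the results was not tested.

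The 17 genes of the dehydrogenase, electron transfer, hydration to thiolysis and auxiliary steps, including peroxisomal Acaa1a, were compared by heart with other energy genes. Relative to the WT mean of each gene, their median was -0.16, -0.089 and -0.11 in KO replicates 1 to 3, against 0.057, 0.053 and -0.090 in WT replicates 1 to 3. All KO hearts were thus below WT replicates 1 and 2, and KO replicate 2 was level with WT replicate 3. The citrate cycle genes gave -0.20, -0.044 and -0.069 in KO replicates 1 to 3, against 0.043, 0.036 and -0.089 in WT replicates 1 to 3. The respiratory chain genes gave -0.17, -0.050 and -0.080 in KO replicates 1 to 3, against 0.051, 0.050 and -0.093 in WT replicates 1 to 3. These 3 groups, mitochondrial but for Acaa1a, ranked KO replicate 1 lowest and WT replicate 3 near the KO hearts alike. By gene, 14 of 17 beta-oxidation and electron transfer genes, 16 of 17 citrate cycle genes and 18 of 19 respiratory chain genes had a lower mean in KO hearts, beside 55.8% of all named genes, with median differences of -0.14, -0.091 and -0.083. Without WT replicate 3 the respiratory chain median was -0.16, and the citrate cycle median was -0.14 without that heart and -0.059 without KO replicate 1. Glycolysis genes had a lower mean in 2 of 13 and a median difference of 0.082, which was 0.022 without KO replicate 1, with 5 of 13 lower, and 0.13 without KO replicate 3. The difference between these groups was not tested. The cardiomyocyte markers had a median difference of -0.036, with 5 of 8 lower, and the endothelial markers -0.12, with 5 of 6 lower and a mean signal of 10.02 to 10.05 in KO hearts and 10.09 to 10.19 in WT hearts.

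**Figure D4:**
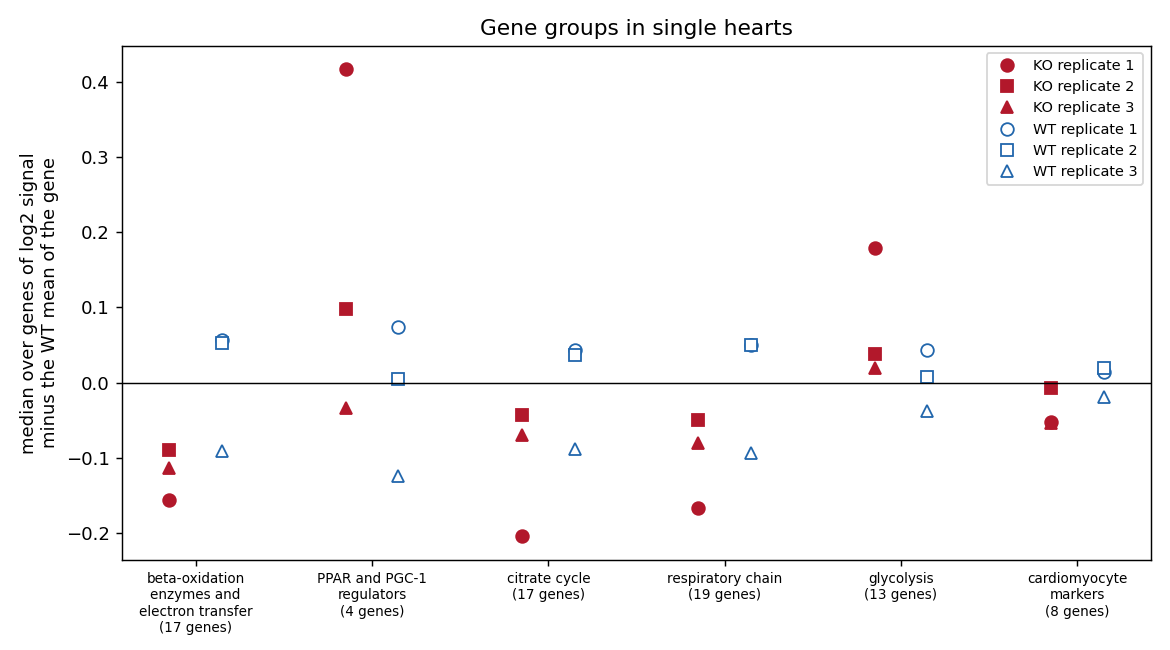
For each gene group, the median over its genes of the log2 signal minus the WT mean of the gene (vertical axis) in each heart, with filled KO symbols left of open WT symbols. In the beta-oxidation, citrate cycle and respiratory chain groups KO replicate 1 is the lowest heart and WT replicate 3 lies among the KO hearts. KO replicate 1 is the highest heart for the regulators and for glycolysis.

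Of 76 further genes of lipid handling, 70 were measured and 0 passed the test, with 32 higher and 38 lower by mean, 3 of them higher and 1 lower at an unadjusted p under 0.05 (over all named genes 2.07% and 2.91%). The 3 higher genes belonged to the 18 genes of uptake, lipolysis and lipid droplets, of which 13 had a higher and 5 a lower mean. Of the 18, 3 had every KO heart above every WT heart, among them Fabp4 and Gpihbp1, which were named by their p, and 1 (5.56%) had every KO heart below. Over all 70 genes 4 were separated upward, where 4.95% of all named genes were. Fabp4, a fatty acid binding protein of capillary endothelium, adipocytes and macrophages, was 8.21, 8.23 and 8.57 in KO replicates 1 to 3, against 8.05, 7.68 and 6.96 in WT replicates 1 to 3. All KO hearts lay above all WT hearts, with the WT hearts widely spread, and the difference of 0.77 ± 0.26 (log2, SE; limma, adjusted p = 0.797) was 0.47 without WT replicate 3. Gpihbp1, which holds lipoprotein lipase on the capillary wall, was 7.02, 6.96 and 6.96 in KO replicates 1 to 3, against 6.74, 6.83 and 6.72 in WT replicates 1 to 3. Its KO hearts lay close together above the WT hearts, with a difference of 0.21 ± 0.080 (adjusted p = 0.797). Angptl4, a secreted inhibitor of lipoprotein lipase and a PPAR target, was named after its value was seen, at 6.95, 6.80 and 6.64 in KO replicates 1 to 3, against 6.38, 6.22 and 6.70 in WT replicates 1 to 3. WT replicate 3 lay above KO replicate 3, and the difference was 0.36 ± 0.14 (adjusted p = 0.797). The fatty acid translocase gene Cd36, also named after its value was seen, differed by 0.10 ± 0.14 with overlap, and by -0.030 without WT replicate 3.

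**Figure D5:**
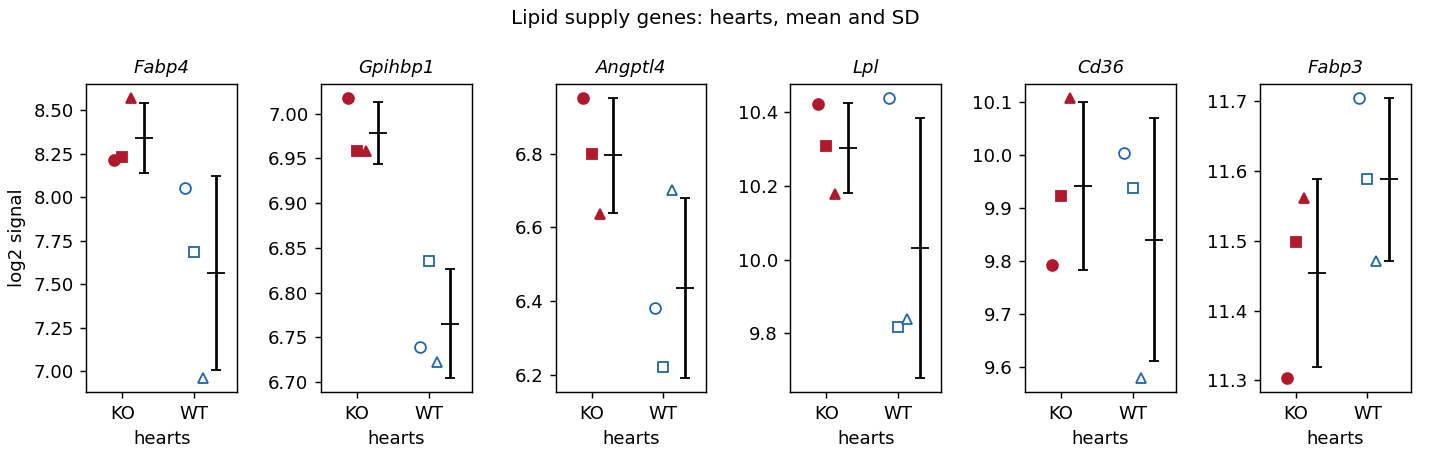
Log2 signal (vertical axes, a separate scale for each gene) of 6 genes of fatty acid supply in KO hearts (filled, left) and WT hearts (open, right), with circles, squares and triangles for replicates 1, 2 and 3 and the mean and SD beside them (n = 3). Fabp4 and Gpihbp1, named by their p, are higher in every KO heart than in any WT heart, and Angptl4, Lpl, Cd36 and Fabp3 overlap between the groups. Of all named genes 4.95% were separated upward.

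These higher supply genes stood beside macrophage markers, of which 8 of 8 measured were higher by mean in KO hearts, where 44.2% of all named genes were. Their mean signal was 6.97, 7.29 and 7.24 in KO replicates 1 to 3, against 7.004, 6.97 and 6.90 in WT replicates 1 to 3. KO replicate 1 thus lay among the WT hearts. Of the endothelial markers 1 of 6 was higher. Fabp4 is expressed by both cell types, and the part of either in its value was not tested. In the remaining lists, Decr2, the peroxisomal dienoyl-CoA reductase and the counterpart of Decr1, was 8.97, 8.97 and 8.77 in KO replicates 1 to 3, against 9.18, 9.15 and 9.04 in WT replicates 1 to 3. The groups did not overlap and the difference was -0.22 ± 0.095 (log2, SE; limma, adjusted p = 0.797). Decr2 was named by its p, and was the 1 gene of 10 in its list (10%) with all KO hearts below all WT hearts. Over all 70 related genes 7 were so separated (10%), beside 7.18% of all named genes. Of 10 measured carnitine and peroxisomal genes, 7 were lower, and of 13 other mitochondrial acyl-CoA enzymes 12 were lower, among them the complex I assembly factor and acyl-CoA dehydrogenase gene Acad9 at -0.18 ± 0.090. Of these 13 genes, 3 (23.1%) had all KO hearts below all WT hearts, Acad9 among them, a share near the 21.9% of the module. Acss1, a mitochondrial acetyl-CoA synthetase, stood at -0.12 ± 0.084 in a list of 10 genes with 6 lower. It was the 1 gene of that list (10%) with all KO hearts below all WT hearts.

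Among 19 measured further regulators and PPAR targets, 11 were higher and 8 lower by mean. Esrra, the oestrogen-related receptor α, which activates many beta-oxidation genes, was 8.40, 8.497 and 8.19 in KO replicates 1 to 3, against 8.68, 8.54 and 8.58 in WT replicates 1 to 3. Esrra was named as the lowest p of this list. It was the 1 gene of the 19 (5.26%) with every KO heart below every WT heart, beside 7.18% of all named genes. The difference of -0.24 ± 0.10 (log2, SE; limma, adjusted p = 0.797) was -0.26 without KO replicate 1. Lpin1, lipin 1, a phosphatidate phosphatase and PPARα coactivator named after its value was seen, was 8.39, 7.29 and 7.20 in KO replicates 1 to 3, against 6.98, 7.09 and 7.15 in WT replicates 1 to 3. KO replicate 1 stood far above all other hearts, and the difference of 0.55 ± 0.29 was 0.17 without it. Lpin1 was the 1 gene of the 19 with every KO heart above every WT heart, beside 4.95% of all named genes. KO replicate 3 was close to WT replicate 3 there.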

How the data were processed

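Gene expression was measured in 3 KO and 3 WT mouse hearts, grouped by sample title, on 1 Affymetrix Mouse Gene 1.0 ST array each. The deposited log2 signals were made by the authors with RMA, a method that corrects background, gives arrays a common distribution and summarises each cluster's probes, per the submitters' processing notes. The sources used here name no RMA version, build or filter. RMA narrows differences of dim clusters, and the number of arrays limits precision. The scanner files were not used here.

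Of 28767 clusters, 21776 had 1 symbol in the platform annotation, 1618 several and 5373 none. 21686 were matched to GRCm38.p6 by Entrez identifier. The brightest cluster stood for each of 19933 genes. KO minus WT was fitted with limma 3.58.1 (R 4.3.3, lmFit and eBayes, two-sided, no covariate, no filter), with Benjamini-Hochberg adjustment over all clusters at 0.05, and checked on simulated data. Intervals are 95% intervals of the moderated fit. Replicates are biological per the design text. Limma's p-values rest on the spread among them, which eBayes draws toward a value shared by all clusters. Members and lists were chosen with earlier results of these data known. All module genes, Itgb1 and, from each list of related genes, up to 2 higher and 2 lower genes at p under 0.05, or else the lowest p, were named, and Angptl4, Cd36 and Lpin1 were added after their values were seen. Alternatives were a filter on dim clusters, other normalizations, centring, variance models, array weights, a replicate block, other cluster choices and leaving out each heart.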

Additional observations from a re-analysis of the deposited data

How the results depend on the processing

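Under 15 alternatives, 0 module genes passed the adjusted test, and 19 to 23 of 32 had a lower mean in KO hearts. The count of clusters past the threshold was 0 to 1 over the fits without 1 heart, the 1 being AI506816 without KO replicate 1 (adjusted p = 0.00112), and 0 in the other alternatives. The median of the activation step ran from -0.12 (without WT replicate 3) to 0.048 without 1 heart, and the medians of the 6 other steps kept their sign. Of 42 named genes, 34 kept their direction throughout. Over the fits without 1 heart the differences were -0.11 to 0.011 for Acsl5, -0.13 to 0.085 for Acot2, -0.021 to 0.059 for Cpt1a, -0.092 to 0.083 for Acadl, -0.0078 to 0.11 for Acaa1a, -0.022 to 0.085 for Eci2, -0.063 to 0.16 for Ppargc1b and -0.030 to 0.18 for Cd36. With array weights Eci2 stood at -0.094 and Ppargc1b at -0.027. The cause was not tested. Genes lower at an unadjusted p under 0.05 numbered 0 (without WT replicate 1, without WT replicate 2, replicate block) to 6. The replicate numbers are not said to pair hearts and were not taken as pairs. Deviations of same-numbered hearts from their group means had r = -0.042, -0.026 and -0.056 for replicates 1, 2 and 3. With 3 hearts a group, whose deviations constrain each other, these values cannot settle whether the hearts were paired. The replicate block left the median difference of the module at -0.10 with 0 of 32 genes at an unadjusted p under 0.05 (limma, smallest adjusted p = 0.913). Signal over background could not be had for single clusters from these values.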
